A study of Mus musculus with 20 samples.

Results

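CD4+Foxp3+ regulatory T (Treg) cells and CD4+Foxp3- T cells from mice in which Treg cells lack both Tet2 and Tet3 (DKO) were compared by RNA sequencing, to find out which genes set the 2 populations apart in spleen and peripheral lymph nodes (pLNs). The comparison rests on 4 of the 20 libraries of the series, chosen by their labels: 2 of DKO Treg cells and 2 of DKO CD4+Foxp3- T cells. DKO mice were Tet2/3 fl/fl Foxp3Cre animals on the C57BL/6 background, 14 weeks old, in which a YFP-Cre fusion protein is made from the Foxp3 locus, so that the floxed alleles are deleted in cells that express Foxp3. WT mice were Foxp3Cre animals of the same age, which carry the same YFP-Cre allele and intact Tet2 and Tet3. Treg cells were sorted as CD4+YFP+ and CD4+Foxp3- T cells as CD4+YFP-, from spleen and pLNs that were pooled. By the study's account the DKO CD4+YFP- cells hold both bystander T cells and former Treg cells that had lost Foxp3, and the DKO mice were 2 littermates, of which 1 had the more severe splenomegaly. The labels do not say which replicate number that mouse has, nor that equal numbers in Treg and CD4+Foxp3- libraries are the same mouse, so replicates are named by number only. The 4 matching WT libraries, and the 6 libraries of the same DKO cell types from mesenteric lymph nodes (mLN) of mice of the same strain and age, are used for comparison.

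Treg cells restrain other lymphocytes, and their identity rests on the transcription factor Foxp3, on high expression of the IL-2 receptor alpha chain CD25 and on surface molecules such as CTLA-4. They make little IL-2 themselves and take it up from conventional T cells. CD4+Foxp3- T cells include resting cells, which recirculate and express IL-7 receptor and Tcf7, and effector cells, which are sorted by their cytokines into Th1, Th2, Th17 and T follicular helper (Tfh) cells. TET proteins oxidise 5-methylcytosine in DNA, a step towards losing the methyl mark. In Treg cells this takes place at enhancers of Foxp3, where it is known to steady Foxp3 expression.

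The 4 libraries held 14163711 to 15253141 counted reads, and 3 counts, the limit that a count of 0 allows, amounted to 0.172 to 0.222 CPM (counts per 1000000 reads). The interval and limit cover counting error only. All levels are CPM after TMM scaling unless another scale is named. The replicates were not equally close. Over the 500 most variable genes the DKO Treg libraries lay 27.5 apart in log2 CPM, the DKO CD4+Foxp3- libraries 55.9, and libraries of different cell type 58.2 to 70.7. Of 11354 genes at 1 CPM or more, 841 were over 2-fold higher in CD4+Foxp3- replicate 1 and 402 in replicate 2, and in Treg cells 575 were over 2-fold higher in replicate 1 and 29 in replicate 2. Gene length was also compared, with each library set against the mean of the WT libraries of its cell type. In DKO Treg replicate 1 long genes were raised against short ones. The rise was 0.72 on the log2 scale between the 2190 longest and the 2190 shortest of 10950 genes. The other DKO libraries of spleen and pLNs had -0.04 to 0.05. The WT libraries had -0.05 to 0.05, in values that mirror each other because these libraries are part of their own reference. The 12 T cell genes had a summed level of 6167 and 7179 CPM in Treg and 7471 and 9011 CPM in CD4+Foxp3- T cells, and Cd4 itself was called lower in Treg cells (log2 difference -0.82 ± 0.19, adjusted p = 0.0308), a call lost without either Treg replicate, and of the list 4 were called lower without CD4+Foxp3- replicate 1 and 2 without replicate 2. Some markers of other cells were at or near 0, with Cd14 at most 0.205 CPM, S100a8 at most 1.13 CPM and Cd8a at most 0.377 CPM, and others were not, such as Cd8b1 (6.64 and 9.28 CPM in Treg and 4.71 and 11 CPM in CD4+Foxp3- T cells) and the NK marker Klrb1c, which is given with the cytotoxicity genes. None of the 12 B cell or 6 plasma cell markers was called, though the plasma cell gene Igj had 88.4 and 15.4 CPM in Treg replicates 1 and 2 and 119 and 23.6 in CD4+Foxp3- replicates 1 and 2, and was high in both libraries numbered 1. Of the 17 myeloid markers 3 were called lower in Treg cells (Tyrobp, Fcer1g and Itgax, at most 6.65 CPM in any of the 4 libraries), 1 without Treg replicate 1 and none of the 3 without Treg replicate 2. The list had a summed level of 427 and 571 CPM in Treg cells and 343 and 462 CPM in CD4+Foxp3- T cells. These markers' part in the results below was not tested. In bulk libraries fewer cells of a type and less RNA per cell cannot be told apart. With 2 animals a group the p-values measure only the spread between libraries. That spread was estimated over all 8 libraries of spleen and pLNs, WT included, and not over the 4 DKO libraries alone.

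The targeted genes could not check the labels, because reads of a whole gene include exons that Cre leaves in place. Tet2 had 8.01 and 2.05 CPM in the DKO Treg libraries and 2.76 and 1.78 CPM in the DKO CD4+Foxp3- libraries. Tet3 had 61.0 and 38.1 CPM against 37.7 and 45.9 CPM, and neither gene was called (adjusted p = 0.414 and 0.697). Foxp3, whose locus also makes the YFP used as the sorting gate, had 419 and 235 CPM in Treg cells and 0.251 and 0.741 CPM in CD4+Foxp3- T cells. This follows from the sort and is given as a check of it.

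DKO Treg cells and DKO CD4+Foxp3- T cells differed in genes of Treg identity, of which 16 of 24 were higher in Treg cells, and in genes of resting T cells, helper cytokines and cytotoxicity, of which 10 of 24, 6 of 22 and 6 of 16 were lower. Of 16357 genes tested, 617 were called, meaning that the adjusted p was 0.05 or less and the fold change 1.5 or more. Of these 353 were higher in Treg cells (2.16% of genes tested) and 264 were lower (1.61%). At an unadjusted p below 0.05 there were 2323. The number depended on single libraries. It was 185 without Treg replicate 1, 746 without Treg replicate 2, 1586 without CD4+Foxp3- replicate 1 and 1311 without CD4+Foxp3- replicate 2, with the lone library assumed to vary like the other groups. Of the 617 genes, 176 were also called without Treg replicate 1, 348 without Treg replicate 2, 564 without CD4+Foxp3- replicate 1 and 556 without CD4+Foxp3- replicate 2, and none was called in the opposite direction in any of these.

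**Figure D1:**
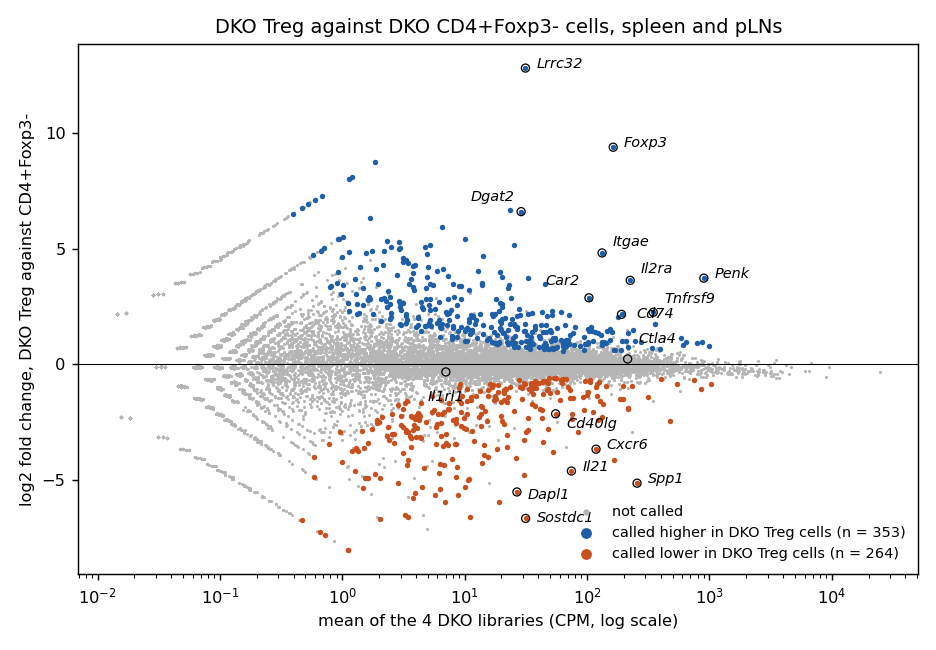
Log2 fold change of DKO Treg against DKO CD4+Foxp3- cells (vertical axis) by the mean level of the 4 DKO libraries (horizontal axis, CPM, log scale), with 1 point per gene tested. Blue points are the 353 genes called higher and orange points the 264 called lower in Treg cells, grey points were not called, and circles mark genes named in the text. Ctla4 and Il1rl1 lie near 0 among the grey points. The fitted fold of Lrrc32, at 0 counts in both CD4+Foxp3- libraries, depends on the prior count.

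Among the genes of at least 10 CPM with the largest differences, besides Foxp3, was Lrrc32 (chr7:105642732-105650341, build NCBIM37), which encodes GARP, the surface protein that docks latent TGF-beta. It had 65.7 and 60 CPM in the Treg libraries and no read in either CD4+Foxp3- library, which makes it at least 306-fold higher in Treg cells, against 3 counts per library. Dgat2 (chr7:106302173-106331223), an enzyme of triglyceride synthesis, had 63.2 and 51.4 CPM against 0.502 and 0.667 CPM, a 97.4-fold difference (log2 6.61 ± 0.39, estimate ± SE of the fit, n = 2 and 2, adjusted p = 3.38e-06). The other genes with the largest differences were Cobl, an actin nucleator, Dscam, an adhesion molecule of the immunoglobulin superfamily, Cdcp1, a transmembrane glycoprotein, Slc7a10, an amino acid transporter, and Itgae, the integrin alpha chain CD103. Their log2 differences ran from 4.68 for Slc7a10 to 5.94 for Cobl. Cobl and Dscam differed between the Treg libraries, with 19.2 and 6.69 CPM for Cobl and 31.8 and 7.85 CPM for Dscam in replicates 1 and 2, yet both Treg libraries stood above both CD4+Foxp3- libraries, in which neither gene passed 0.667 CPM. Tdpoz4 and Gm4858 (chr3:93600320-93601432 and chr3:92877408-92879427) belong to a family of near-identical copies on chromosome 3, so that reads can be placed on either. They had 43.0 and 49.8 and 40.9 and 57.8 CPM in Treg cells and at most 1.63 CPM in CD4+Foxp3- T cells. All 10 genes with the largest positive differences, Foxp3 among them, kept their calls in all 12 alternatives tried.

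The genes most reduced in Treg cells were at or below 1.77 CPM there except Spp1, and differed in which of the CD4+Foxp3- libraries held more of them. Pdlim4 (chr11:53868430-53882516), a cytoskeletal PDZ and LIM protein, had 0.286 and 0.137 CPM in Treg cells and 12.6 and 30.9 CPM in CD4+Foxp3- T cells (log2 -6.59 ± 0.57, adjusted p = 8.74e-05). Ggt5, a gamma-glutamyltransferase, had 0.343 and 0.341 against 7.85 and 26.7 CPM, and Dapl1, a gene of naive T cells, 0.572 and 1.77 against 27.6 and 77.1 CPM. In these 3 genes CD4+Foxp3- replicate 2 was the higher, and the calls were kept in all 12 alternatives. Aqp9, a channel for glycerol and water, had 0 and 0.614 against 5.46 and 19.1 CPM and was not called under a robust prior or without Treg replicate 1. The reverse order held for Sostdc1, a secreted antagonist of BMP signalling that is made by Tfh cells, with 1.03 and 0.137 CPM in Treg cells and 110.4 and 14.5 CPM in CD4+Foxp3- replicates 1 and 2. Efnb2 (ephrin-B2, 21.7 and 5.56 CPM), Lpar3 (a lysophosphatidic acid receptor, 69.7 and 5.71 CPM), Pdzrn3 (a ubiquitin ligase, 31.6 and 7.71 CPM) and the transcript 9930032O22Rik (20.3 and 2.30 CPM) were likewise highest in CD4+Foxp3- replicate 1 and at or below 0.859 CPM in Treg cells. Spp1 (chr5:104864137-104870069), which encodes the secreted phosphoprotein osteopontin, showed this most: it had 14.1 and 14.4 CPM in the Treg libraries, 957 and 40.1 CPM in CD4+Foxp3- replicates 1 and 2, and a log2 difference of -5.13 ± 0.98 (adjusted p = 0.0109) that was -1.49 without CD4+Foxp3- replicate 1. Without Treg replicate 1, Sostdc1, Efnb2, Lpar3, 9930032O22Rik, Pdzrn3 and Spp1 were not called, and without Treg replicate 2 all of these but Pdzrn3 were not called.

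Of 24 genes of the Treg lineage that were tested, 16 were called higher in DKO Treg cells, with Foxp3, the sorting gate, among them, and 8 were not called, with a median log2 difference of 1.5 beside 0.00 over all genes. Their summed level was 7893 and 8256 CPM in the Treg libraries and 3517 and 1954 CPM in CD4+Foxp3- replicates 1 and 2. The count was 21 without CD4+Foxp3- replicate 1, 19 without replicate 2, and 11 without either of the Treg replicates. Penk (chr4:4060678-4065966), which encodes the opioid peptide precursor proenkephalin, had 1674 and 1678 CPM in Treg cells, against 142 and 109.8 CPM in CD4+Foxp3- T cells, a 13.3-fold difference (log2 3.73 ± 0.39, adjusted p = 0.000236). Per unit of length the mean level of Penk was 2206 TPM in Treg cells and 152 TPM in CD4+Foxp3- T cells. Itgae (chr11:72904085-72960948) had 312 and 201 against 4.46 and 13.9 CPM, a 28.3-fold difference, and Gpr83, a G protein-coupled receptor enriched in Treg cells, 44.9 and 76.9 against 3.20 and 6.00 CPM. The Ikaros-family factor Ikzf4 (Eos), a Foxp3 partner, had 38.7 and 34.1 CPM in Treg and 1.32 and 3.33 CPM in CD4+Foxp3- T cells (log2 3.99 ± 0.34, adjusted p = 8.44e-05). The zinc finger gene Plagl1 was lower in level, with 8.93 and 6.01 against 0.314 and 0.445 CPM. In each of these genes the Treg and CD4+Foxp3- libraries were well apart and the call was kept in all 12 alternatives. The guidance receptor Nrp1, used to mark thymus-derived Treg cells, was called with a smaller difference, 157 and 201 against 49.0 and 88.8 CPM (log2 1.38 ± 0.27, adjusted p = 0.0123), and was not called without either Treg replicate.

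**Figure D2:**
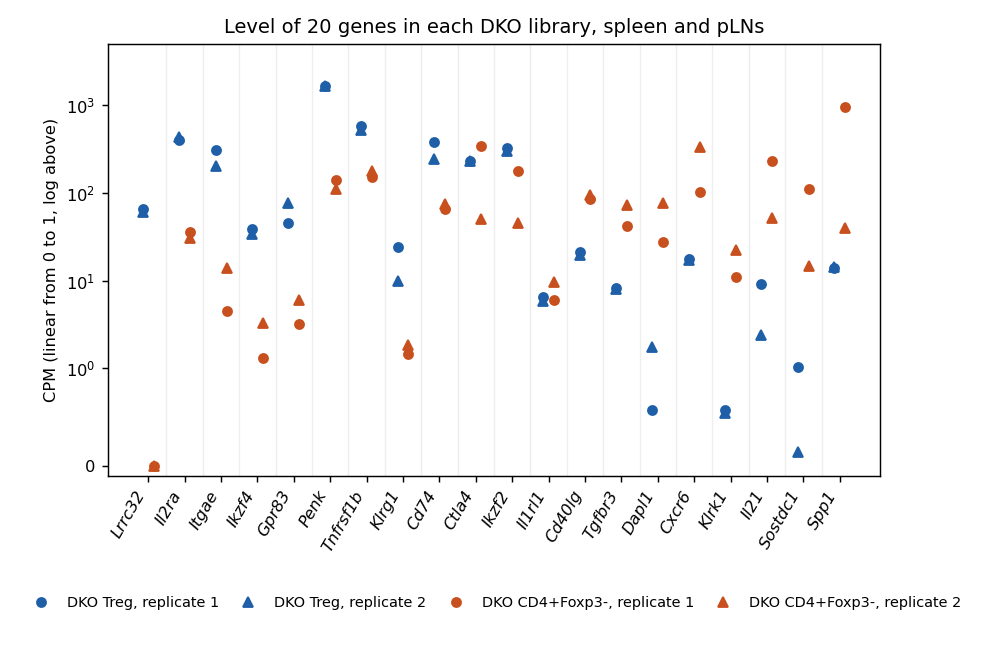
Level of 20 genes in each of the 4 DKO libraries of spleen and pLNs (vertical axis, CPM, linear from 0 to 1 and logarithmic above). Blue symbols are DKO Treg and orange symbols DKO CD4+Foxp3- libraries, with circles for replicate 1 and triangles for replicate 2. Ctla4, Ikzf2, Il21, Sostdc1 and Spp1 show the wide gap between the CD4+Foxp3- libraries, and Ctla4 and Il1rl1 are the genes in which the cell types overlap.

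Several genes used to define Treg cells were not called, and most of these were high in CD4+Foxp3- replicate 1. Ctla4, the inhibitory receptor for CD80 and CD86, had 231 and 234 CPM in the Treg libraries and 344 and 50.4 CPM in CD4+Foxp3- replicates 1 and 2 (log2 0.24 ± 0.55, adjusted p = 0.910). Its level in CD4+Foxp3- replicate 1 was above both Treg libraries. Ikzf2 (Helios) had 324 and 304 against 178 and 45.4 CPM (log2 1.49 ± 0.43, adjusted p = 0.0889), and Tnfrsf4 (OX40) 542 and 628 against 428 and 102 CPM (adjusted p = 0.234), both without overlap. Cd83 with 149.7 and 167 against 155 and 28.6 CPM, and Capg, an actin-capping protein, with 228 and 331 against 327 and 142 CPM, overlapped. Socs2, a target of STAT5, had 14.4 and 22.5 against 3.77 and 10.4 CPM and missed the threshold (adjusted p = 0.0633).

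Of 19 suppressor molecules 3 were called higher and 16 were not called (median 0.64), and the count was 10 without CD4+Foxp3- replicate 1 and 2 to 4 in the other alternatives that kept that library. The 3 were Lrrc32, Ebi3, a subunit of IL-35 and IL-27, with 40.8 and 26.0 against 3.77 and 6.89 CPM (log2 2.66 ± 0.31, adjusted p = 0.000565), and Cd86, a ligand of CTLA-4 and CD28, with 23.8 and 44.1 against 3.08 and 9.26 CPM (log2 2.47 ± 0.40, adjusted p = 0.00446), which was not called without Treg replicate 2. Il10 was low in all libraries, 6.87 and 2.80 CPM in Treg and 5.27 and 0.889 CPM in CD4+Foxp3- T cells (adjusted p = 0.773). Tgfb1, Tigit, Itgb8 and Entpd1 (CD39) were higher in both Treg libraries than in either CD4+Foxp3- library but were not called (adjusted p = 0.438, 0.382, 0.228 and 0.0701). Lag3, an inhibitory receptor, had 193 and 159 CPM in Treg cells and 896 and 149 CPM in CD4+Foxp3- replicates 1 and 2.

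Of 18 genes of effector and tissue Treg cells 3 were called higher, 1 lower and 14 were not called (median 0.46). With a replicate block 1 was called higher and 0 lower. Klrg1, a receptor of terminally differentiated Treg cells, had 24.1 and 9.97 CPM in Treg replicates 1 and 2 and 1.44 and 1.85 CPM in CD4+Foxp3- T cells (log2 3.38 ± 0.38, adjusted p = 0.000367), a call kept in all 12 alternatives. Ccr8, a chemokine receptor of tissue Treg cells, had 97.4 and 106 against 34 and 8.22 CPM, and Ikzf3 (Aiolos) 172 and 92.6 against 41.2 and 76.2 CPM (log2 1.17 ± 0.29, adjusted p = 0.0491). Epas1, the hypoxia factor HIF-2 alpha, was the member called lower, with 1.20 and 0.887 against 4.39 and 9.93 CPM. The calls of Ccr8, Ikzf3 and Epas1 were lost in 4 to 7 of the 12 alternatives, all 3 without Treg replicate 1. The list had 8 members called higher without CD4+Foxp3- replicate 1, 7 without replicate 2 and 1 without Treg replicate 1, and 5 called lower without CD4+Foxp3- replicate 2, while Epas1 was not called without either Treg replicate. The transcription factors Batf, Irf4 and Maf and the costimulatory receptor Icos were each highest in CD4+Foxp3- replicate 1, with 1236 and 262 CPM for Icos in CD4+Foxp3- replicates 1 and 2 against 522 and 471 CPM in Treg cells, and were not called.

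Of the IL-2 receptor chains the alpha and the beta chain were called higher in Treg cells, as were 2 genes induced through STAT5. Il2ra (chr2:11564419-11614818), the alpha chain CD25, had 399 and 436 CPM in Treg cells and 36.2 and 30.9 CPM in CD4+Foxp3- T cells, a 12.4-fold difference (log2 3.64 ± 0.19, adjusted p = 1.36e-06) kept in all 12 alternatives. The beta chain Il2rb was abundant in both, 1190.4 and 1355 against 813 and 635 CPM (log2 0.81 ± 0.20, adjusted p = 0.0415), and the common gamma chain Il2rg was at 939.5 and 889 against 669.8 and 996 CPM and was not called (adjusted p = 0.822). Cish, a STAT5-induced feedback inhibitor, had 79.3 and 92.2 against 16.9 and 40.2 CPM (log2 1.59 ± 0.29, adjusted p = 0.00858) and the kinase Pim1 156 and 111 against 55.1 and 81.4 CPM (log2 0.97 ± 0.22, adjusted p = 0.0308). The signalling genes Jak1, Jak3, Stat5a and Stat5b were not called, with log2 differences of -0.05 to 0.38. In all, 5 of 20 genes of this group were higher, counting Lrrc32, and 1 lower, the IL-7 receptor Il7r. Without Treg replicate 1, Il2rb, Cish, Pim1 and Il7r were not called, which left 2 of the 6.

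The TNF receptor superfamily gave 5 of 19 members higher and 14 not called (median 1.03), 4 of them from chromosome 4. Tnfrsf1b (TNFR2, chr4:144803366-144836773) had 579 and 519 against 150.5 and 177 CPM (log2 1.75 ± 0.18, adjusted p = 0.000223), and its neighbour Tnfrsf8 (CD30, chr4:144857040-144905067) 51.2 and 32.5 against 5.90 and 1.70 CPM (log2 3.44 ± 0.44, adjusted p = 0.000925). Tnfrsf18 (GITR, chr4:155400273-155403004) had 326 and 374 against 149 and 98.5 CPM. Tnfrsf9 (4-1BB, chr4:150288671-150320211), a costimulatory receptor induced by activation, had 585 and 565 CPM in Treg cells and 186 and 54.4 CPM in CD4+Foxp3- replicates 1 and 2. Cd27, on chromosome 6, had 319 and 344 against 144 and 180.1 CPM (log2 1.03 ± 0.17, adjusted p = 0.00404). Both Treg libraries were above both CD4+Foxp3- libraries in all 5. Tnfrsf1b, Tnfrsf8 and Tnfrsf18 were called in all 12 alternatives, Cd27 in 11 and Tnfrsf9 in 6. Tnfrsf9 was not called without either Treg replicate. The death receptor Fas, at 28.4 and 32.3 against 13.1 and 21.3 CPM, missed the threshold (adjusted p = 0.0598).

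Of 24 genes of conventional and resting T cells 10 were called lower in DKO Treg cells and 14 were not called, with a median log2 difference of -0.83. Their summed level was 3492 and 4013 CPM in the Treg libraries and 4033 and 8359 CPM in CD4+Foxp3- replicates 1 and 2. Fewer were called without either Treg replicate. More were called without CD4+Foxp3- replicate 1, where calls over all genes rose too. Cd40lg (chrX:54465320-54477219), the CD40 ligand through which helper T cells activate B cells, had 21.4 and 19.7 CPM in Treg and 85.9 and 94.6 CPM in CD4+Foxp3- T cells (log2 -2.13 ± 0.15, adjusted p = 1.51e-05). Pde3b, a phosphodiesterase that Foxp3 is known to repress, had 24.9 and 13.9 against 104 and 193 CPM (log2 -2.93 ± 0.30, adjusted p = 0.000236), and the TGF-beta co-receptor Tgfbr3 8.19 and 8.06 against 42.3 and 73.5 CPM (log2 -2.83 ± 0.24, adjusted p = 8.36e-05). These 3 and Dapl1 were called in all 12 alternatives. Igfbp4, which binds insulin-like growth factors, had 91.3 and 204 CPM in Treg cells and 384 and 1235 CPM in CD4+Foxp3- replicates 1 and 2, and Themis, a T cell receptor signalling protein, 41.8 and 44.9 against 86.6 and 272 CPM. Il7r had 104 and 103 against 142 and 443 CPM (log2 -1.5 ± 0.37, adjusted p = 0.0436), and Tcf7, a transcription factor of naive and memory T cells, 625 and 489 against 887 and 1404 CPM (log2 -1.04 ± 0.23, adjusted p = 0.0257). In Igfbp4, Themis, Il7r and Tcf7 replicate 2 was the higher of the CD4+Foxp3- libraries. The homing receptors Ccr7 and S1pr1 and the factors Lef1, Klf2 and Satb1 were not called. Klf2 had 139.6 and 156 CPM in Treg and 169 and 333 CPM in CD4+Foxp3- T cells.

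Of 22 cytokine genes 6 were called lower in Treg cells and 16 were not called, with a median log2 difference of -1.78. Il21 (chr3:37121681-37131540), the Tfh cytokine that drives germinal centre B cells, had 9.22 and 2.39 CPM in the Treg libraries and 234 and 52.4 CPM in CD4+Foxp3- replicates 1 and 2 (log2 -4.60 ± 0.66, adjusted p = 0.00182), a call kept in 11 of 12 alternatives and lost under a robust prior. Il2 (chr3:37019445-37024881), the T cell growth factor, lies on the same chromosome and had 0.0572 and 0.273 CPM against 1.32 and 3.19 CPM (log2 -3.75 ± 0.77, adjusted p = 0.0175). Ifng had 1.14 and 1.91 against 4.52 and 9.71 CPM (log2 -2.22 ± 0.42, adjusted p = 0.00983), and Tnfsf8 (CD30 ligand) 75.2 and 109.6 against 501 and 182 CPM (log2 -1.89 ± 0.36, adjusted p = 0.0104). Without Treg replicate 1, Il2, Ifng, Tnfsf8 and Csf2 were not called, which left 2 of the 6. Csf2 (GM-CSF) rested on 2 reads in the Treg libraries and 33 in the CD4+Foxp3- libraries, a ratio of 18 with an exact 95% counting interval of 4.61 to 155, and DESeq2's test did not call it. The sixth was Cd40lg. The Th2 cytokines Il4, Il5 and Il13 and the inflammatory cytokine Tnf were not called.

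Of 20 genes of Tfh cells 5 were called lower in Treg cells (2 with a replicate block) and 15 were not called (median -0.46), among the latter the genes by which Tfh cells are usually sorted and defined. Besides Il21 and Sostdc1 these were Angptl2, a secreted angiopoietin-like protein, with 15.1 and 21.2 CPM in Treg and 551 and 80.2 CPM in CD4+Foxp3- replicates 1 and 2 (log2 -4.13 ± 0.64, adjusted p = 0.00356), Ascl2, a transcription factor of early Tfh cells, with 0.458 and 0.683 against 3.96 and 2.67 CPM, and the coactivator Pou2af1 with 45.2 and 31.2 against 240.0 and 58.2 CPM. Over the alternatives the log2 difference of Angptl2 ran from -4.93 to -1.93 and that of Pou2af1 from -2.65 to -0.61, and the calls were lost in 5 and 7 of 12, both without either Treg replicate and that of Pou2af1 also without CD4+Foxp3- replicate 1. Bcl6, the lineage factor of Tfh cells, had 71.0 and 44.7 CPM in Treg and 126 and 30.7 CPM in CD4+Foxp3- T cells (adjusted p = 0.764), Cxcr5, the receptor that guides them to follicles, 278 and 175 against 301 and 105 CPM (adjusted p = 0.917), and Pdcd1 (PD-1) 274 and 187 against 404 and 124 CPM (adjusted p = 0.894). In these 3 genes CD4+Foxp3- replicate 1 was above both Treg libraries and replicate 2 below both. The list's count was 10 without CD4+Foxp3- replicate 2, 4 without replicate 1, and 1 and 2 without Treg replicates 1 and 2.

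Of 16 Th1 genes 3 were called lower in Treg cells and 13 were not called (median -0.53), and without CD4+Foxp3- replicate 1 there were 7. Cxcr6, a chemokine receptor of effector T cells, had 17.6 and 17.1 CPM in the Treg libraries and 104 and 336 CPM in CD4+Foxp3- replicates 1 and 2, a 12.6-fold difference (log2 -3.66 ± 0.43, adjusted p = 0.000508). The Th1 factor Tbx21 (T-bet) had 11.2 and 10.9 against 17.8 and 49.4 CPM (log2 -1.61 ± 0.36, adjusted p = 0.0265). Here CD4+Foxp3- replicate 2 was the higher, the reverse of the Tfh genes. Cxcr6, Tbx21 and Ifng were not called without Treg replicate 1. The chemokines Ccl3 and Ccl4 were higher in both Treg libraries than in either CD4+Foxp3- library, 31.3 and 7.92 against 3.45 and 4.96 CPM for Ccl4, and were not called (adjusted p = 0.126 and 0.0544).

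Of 10 Th17 genes 2 were called higher in Treg cells, the chemokine receptor Ccr6 (25.7 and 36.2 against 9.61 and 8.08 CPM, log2 1.80 ± 0.22, adjusted p = 0.000717) and the aryl hydrocarbon receptor Ahr (30.2 and 20.4 against 8.22 and 10.9 CPM, log2 1.41 ± 0.23, adjusted p = 0.00450), while the list's median was -2.39. Neither receptor is restricted to Th17 cells, and Ahr was not called without Treg replicate 1. The defining cytokine Il17a was raised in CD4+Foxp3- replicate 1 and in no other of the 4 libraries, with 0.114 and 0 CPM in Treg cells and 6.65 and 0.148 CPM in CD4+Foxp3- replicates 1 and 2 (adjusted p = 0.0988). Of 10 Th2 genes 2 were called higher, Ccr3, an eotaxin receptor, with 19.4 and 7.71 against 0.942 and 0.963 CPM, and Ecm1, an extracellular matrix protein, with 44.6 and 58.4 against 16.3 and 22.4 CPM. Gata3, the Th2 factor that Treg cells also use, had 116 and 58.4 against 42.0 and 49.1 CPM and was not called (adjusted p = 0.0695).

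Cytotoxicity genes gave 6 of 16 lower and 10 not called (median -1.30), and the members that moved were mainly receptors shared with NK cells. Klrk1 (NKG2D), Klrd1 (CD94) and Klrc1 (NKG2A) lie in the same cluster on chromosome 6, Klrd1 at chr6:129541800-129548793 and Klrc1 at chr6:129616033-129628991. Klrk1 had 0.572 and 0.546 CPM in Treg and 11 and 22.2 CPM in CD4+Foxp3- T cells (log2 -4.86 ± 0.42, adjusted p = 8.74e-05), Klrd1 0.401 and 1.37 against 10.7 and 19.0 CPM, and Klrc1 0.916 and 0.683 against 6.22 and 8.08 CPM. Crtam, a receptor of activated cytotoxic T cells, had 1.20 and 1.23 against 15.7 and 10.3 CPM (log2 -3.41 ± 0.34, adjusted p = 0.000223). These 4 were called in all 12 alternatives, and the groups did not overlap. Gzmk, a granzyme, had 0.859 and 0 against 6.22 and 17.7 CPM and was not called in 7 of 12 alternatives, DESeq2's test among them. The sixth was Tbx21. The effector molecules Prf1 and Gzmb were not called, with 17.1 and 14.6 against 21.2 and 67.6 CPM for perforin and 33.4 and 6.89 against 6.59 and 9.78 CPM for granzyme B. Of 11 markers of CD8, NK and gamma-delta T cells only Cd160, a receptor that activated CD4 T cells also express, was called (12.5 and 9.28 against 82.4 and 26.4 CPM), and it was not called without either Treg replicate. Without CD4+Foxp3- replicate 1 there were 2 members called lower and without replicate 2 there were 3. Their summed level was 145 and 114 CPM in Treg cells and 306 and 152 CPM in CD4+Foxp3- T cells, most of it from Klrb1c (110.1 and 86.4 and 209 and 96.8 CPM), and the part of such cells in these differences was not tested.

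Of 15 co-inhibitory receptors and ligands 1 was called higher (Havcr2, TIM-3, 12.5 and 5.73 against 1.38 and 1.19 CPM, log2 2.82 ± 0.50, adjusted p = 0.00679) and 2 lower (Cd160 and Lair1). The counts were 5 higher and 3 lower without CD4+Foxp3- replicate 1 and 3 and 3 without replicate 2, and all 3 calls were lost without Treg replicate 1. Lair1, a collagen receptor, had 3.78 and 2.73 against 5.84 and 13.3 CPM. Havcr2 was not called with a replicate block or without Treg replicate 1, and Lair1 lost its call on leaving out any library but CD4+Foxp3- replicate 1. Of 31 chemokine receptors, selectins and integrins 5 were called higher and 3 lower. Itgae, Ccr3, Ccr6, Ccr8 and Ccr1 were the higher ones, Ccr1 at 4.92 and 2.39 against 0.628 and 0.370 CPM, and Cxcr6, Ccr10 and Ccr9 the lower ones. Ccr10, the receptor for skin and mucosal chemokines, had 0.515 and 0.956 against 3.77 and 9.41 CPM (log2 -3.16 ± 0.49, adjusted p = 0.00357) and Ccr9, the gut-homing receptor, 4.41 and 2.73 against 11 and 19.0 CPM (log2 -2.06 ± 0.34, adjusted p = 0.00482). Ccr1, Ccr8 and the 3 lower genes were not called without Treg replicate 1, and without CD4+Foxp3- replicate 1 there were 8 higher and 9 lower members. Integrin chains shared by most lymphocytes were not called, and Itgal had 1112 and 834 against 1093 and 842 CPM (log2 0.01 ± 0.22).

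**Figure D3:**
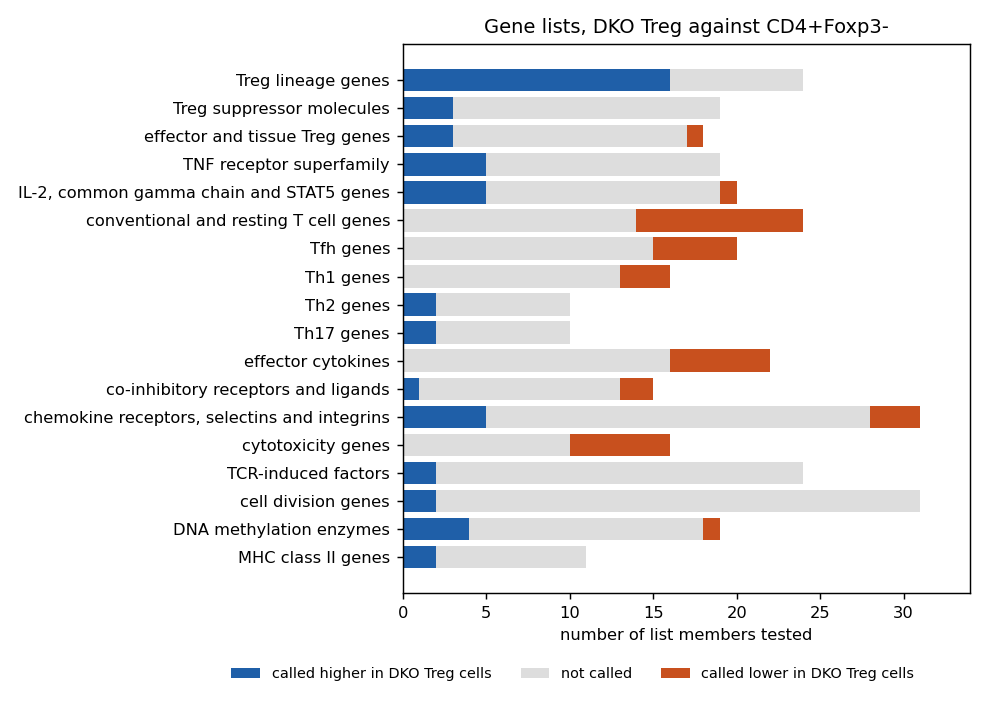
Number of members of 18 gene lists that were called higher (blue), not called (grey) or called lower (orange) in DKO Treg against DKO CD4+Foxp3- cells, spleen and pLNs (horizontal axis, number of members tested). The Treg lineage list holds 16 of 24 called higher and the list of resting T cell genes 10 of 24 called lower.

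Genes of activation and growth were mostly not called. Of 24 factors induced by the T cell receptor 2 were higher, Nr4a3 with 48.6 and 32.3 against 16.1 and 10.1 CPM (log2 1.62 ± 0.29, adjusted p = 0.00702) and Irf8 with 26.8 and 38.3 against 16.9 and 17.9 CPM (log2 0.91 ± 0.19, adjusted p = 0.0219), and without CD4+Foxp3- replicate 1 there were 12. Nr4a3 was not called without Treg replicate 1 and Irf8 not without Treg replicate 2. Of 31 cell division genes 2 were higher, and without CD4+Foxp3- replicate 1 there were 16. The 2 were inhibitors of the cycle: Cdkn1a (p21) with 8.70 and 10.8 against 2.76 and 2.30 CPM (log2 1.94 ± 0.34, adjusted p = 0.00664) and Cdkn2a with 3.21 and 2.59 against 0.188 and 0.593 CPM (log2 2.90 ± 0.63, adjusted p = 0.0244), and neither was called without Treg replicate 1. Top2a, which dividing cells express, had 81.6 and 48.3 against 72.3 and 37.9 CPM. Of 19 genes of DNA methylation 4 were higher and 1 lower, and with a replicate block 0 were called in either direction. The de novo methyltransferase Dnmt3a had 75.6 and 36.7 CPM in Treg replicates 1 and 2 and 14.0 and 24.6 CPM in CD4+Foxp3- T cells (log2 1.55 ± 0.32, adjusted p = 0.0163), and Gadd45g, Gadd45b and the cytidine deaminase Apobec1 were also higher. Idh2, which makes the TET cofactor alpha-ketoglutarate, was lower, 27.8 and 27.2 against 37.6 and 58.1 CPM. None of these 5 calls was kept without Treg replicate 1, and all 5 were kept with the length correction. Tet1 had 4.41 and 4.44 against 1.88 and 5.11 CPM and Dnmt1 103 and 40.7 against 61.2 and 55.3 CPM, and neither was called.

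Of 11 MHC class II genes 2 were higher, the invariant chain Cd74 with 379 and 247 against 65.0 and 74.6 CPM (log2 2.16 ± 0.22, adjusted p = 0.000223), called in all 12 alternatives, and H2-Oa, a chain of the peptide-exchange regulator, with 45.9 and 61.0 against 6.47 and 17.3 CPM. The presenting chains H2-Aa, H2-Ab1 and H2-Eb1 were not called, and H2-Aa had 36.1 and 26.8 CPM in Treg and 33.1 and 40.3 CPM in CD4+Foxp3- T cells (adjusted p = 0.717). The 12 B cell markers summed to 292 and 279 CPM in Treg and 207 and 275 CPM in CD4+Foxp3- T cells, and none of them was called. Of 5 erythroid and platelet genes only the carbonic anhydrase Car2 was called, with 199 and 166 CPM in Treg and 12.7 and 37.0 CPM in CD4+Foxp3- T cells (log2 2.88 ± 0.36, adjusted p = 0.000751), while the red cell gene Alas2 did not pass 0.251 CPM in any of the 4 libraries. Of 14 heat shock and early response genes 2 were lower, the near-identical neighbours Hspa1a and Hspa1b on chromosome 17, whose reads can be placed on either. Hspa1a had 3.15 and 3.48 CPM in Treg cells and 5.59 and 27.5 CPM in CD4+Foxp3- replicates 1 and 2, so that replicate 2 was the higher. Both calls were lost in 7 of 12 alternatives, among them leaving out either Treg replicate or CD4+Foxp3- replicate 2.

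The DKO CD4+Foxp3- libraries differed from each other along the same lists. In replicate 1 against replicate 2, 12 of 19 Tfh genes, 11 of 31 cell division genes, 8 of 23 factors induced by the T cell receptor and 5 of 8 Th17 genes of at least 1 CPM were over 2-fold higher and none was over 2-fold lower, with medians of 1.70, 0.82, 0.77 and 2.06 on the log2 scale. In the other direction, 12 of 24 genes of resting T cells, 10 of 16 Th1 genes and 7 of 15 cytotoxicity genes were over 2-fold lower in replicate 1 and none was higher, with medians of -0.99, -1.13 and -0.95. Of the Treg lineage genes 7 of 24 were over 2-fold higher and 4 lower. Over all 11354 genes the median was -0.02. In DKO Treg cells the same lists differed less between replicates, with 0 of 24 Treg lineage genes over 2-fold apart. Medians lay between -0.14 and 0.52 for the 7 lists plotted. Over 2-fold higher in Treg replicate 1 were 5 of 16 Th1 genes and 3 of 19 Tfh genes. So were 3 of 23 factors induced by the T cell receptor, and no gene of these lists was over 2-fold lower. For Th1 genes this order was the reverse of that in CD4+Foxp3- cells. The 6 plasma cell markers summed to 721 and 210 CPM in CD4+Foxp3- replicates 1 and 2 (337 and 302 CPM in Treg cells), with 2 of 5 of at least 1 CPM over 2-fold higher in replicate 1 and a median of 0.99, and their part in these differences was not tested. These are descriptions of 2 libraries, with no test. They bear on every gene above in which the CD4+Foxp3- libraries stand on both sides of the Treg libraries.

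**Figure D4:**
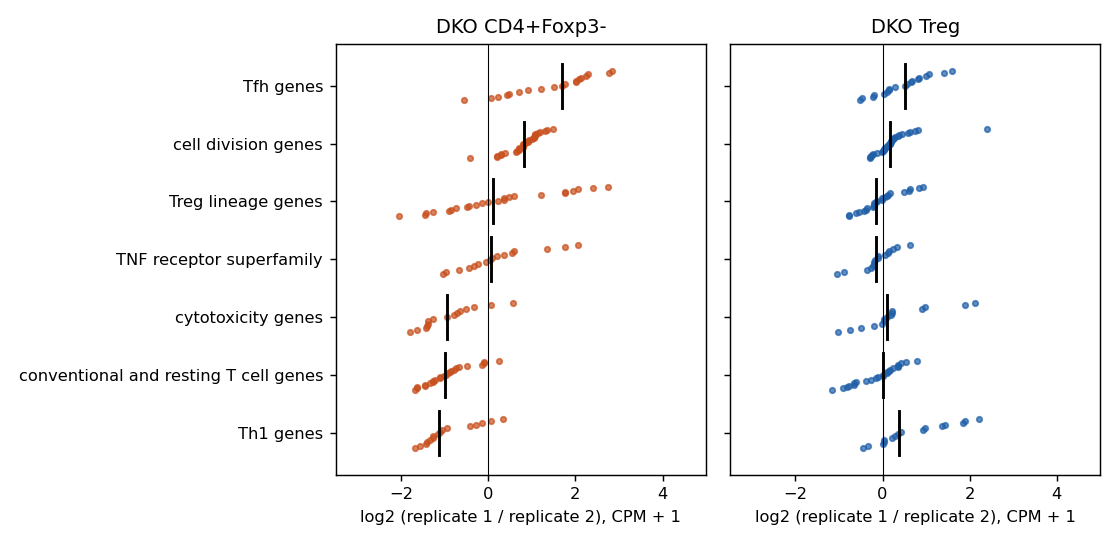
Log2 ratio of replicate 1 to replicate 2 (CPM + 1) for each gene of 7 lists in DKO CD4+Foxp3- cells (left, orange) and DKO Treg cells (right, blue). Points are genes of at least 1 CPM, thick black bars the median of a list, and the thin line marks equal levels. In CD4+Foxp3- cells the median runs from 1.70 for Tfh genes to -1.13 for Th1 genes.

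The same contrast in WT mice, whose 4 libraries are not shared with the DKO contrast, called 406 genes higher in Treg cells (2.48% of genes tested) and 248 lower (1.52%). Both contrasts came from 1 fit with a shared estimate of spread, so the calls they have in common are not those of independent tests. Leaving out any of the 4 WT libraries lowered the sum of 654 to between 144 and 198. Of the 353 genes higher in DKO, 212 (60.1%) were called higher in WT too, which is 52.2% of the 406, and of the 264 lower in DKO 139 (52.7%) were called lower in WT, which is 56.0% of the 248. None was called in opposite directions. The Treg lineage list had 21 of 24 higher in WT with a median of 2.60, beside 16 and 1.5 in DKO. Ctla4 had 269.9 and 260.3 CPM in WT Treg and 34.4 and 40.2 CPM in WT CD4+Foxp3- T cells, so that the WT groups did not overlap where the DKO groups did. The difference between the genotypes was tested as the interaction of cell type and genotype, which did not pass the threshold for Ctla4 (unadjusted p = 0.00667, adjusted p = 0.858), nor for any other member of that list, of which 10 of 24 had an unadjusted p below 0.05, beside 905 of all 16357 genes.

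The interaction called 1 gene (0.00611% of genes tested). Il1rl1 (chr1:40486415-40522260), which encodes ST2, the receptor for the alarmin IL-33 on tissue Treg cells, had 6.58 and 5.87 CPM in DKO Treg and 6.09 and 9.56 CPM in DKO CD4+Foxp3- T cells, against 93.5 and 111 CPM in WT Treg and 6.61 and 3.94 CPM in WT CD4+Foxp3- T cells. The DKO groups overlapped and the WT groups were 19.3-fold apart. The interaction was -4.59 ± 0.38 on the log2 scale (adjusted p = 0.000688), with a range of -5.02 to -4.24 over the alternatives. The call was lost with filterByExpr (adjusted p = 0.103), with a replicate block (0.422) and without DKO Treg replicate 1 (0.113). The number of interaction genes itself was 24 without DKO CD4+Foxp3- replicate 1, 674 without DKO CD4+Foxp3- replicate 2, 268 without DKO Treg replicate 2 and 0 by edgeR without DKO Treg replicate 1 (400 at an unadjusted p below 0.05), so no other gene is described as differing between the genotypes.

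In DKO mLN, fitted separately with 3 libraries in each group, 1300 genes were called higher in Treg cells (7.75% of genes tested) and 585 lower (3.49%), and the sum of 1885 was 2934 without DKO CD4+Foxp3- replicate 2. Of the 353 genes higher in spleen and pLNs 336 were tested in mLN, 217 of them (64.6%) were called higher there, 329 had the same sign and 0 were called lower. The 217 are 17.9% of the 1211 genes called higher in mLN that were tested in both tissues. Of the 249 lower genes tested in mLN 120 (48.2%) were called lower, 215 had the same sign and 2 were called higher. Those 2, named after their values were seen, were S100a4, a calcium-binding protein of activated T cells, with 91.8 and 91.9 CPM in Treg and 156 and 157 CPM in CD4+Foxp3- T cells of spleen and pLNs, a log2 difference of -0.77 there (adjusted p = 0.0101) and 2.17 in mLN (adjusted p = 3.01e-05), and Emp1, an epithelial membrane protein, with -1.98 (adjusted p = 0.0415) and 1.36 (adjusted p = 0.00221). The call of S100a4 was lost without Treg replicate 1 and with a correction for gene length, and that of Emp1 without either Treg replicate or CD4+Foxp3- replicate 1. Among the lists, Treg lineage genes had 22 of 24 higher and resting T cell genes 20 of 24 lower in mLN. Cell division genes had 27 of 31 higher in mLN (median 1.57), beside 2 of 31 in spleen and pLNs (median 0.29). Ctla4, with 296, 289.7 and 449.5 CPM in mLN Treg and 44.0, 148 and 101 CPM in mLN CD4+Foxp3- T cells, was called there (log2 1.82, adjusted p = 0.00158). Il1rl1 was not called in DKO mLN either (log2 0.24, adjusted p = 0.777), nor was Cxcr6 (log2 -0.29, adjusted p = 0.539). The tissues were fitted separately, and the difference between them was not tested.

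**Figure D5:**
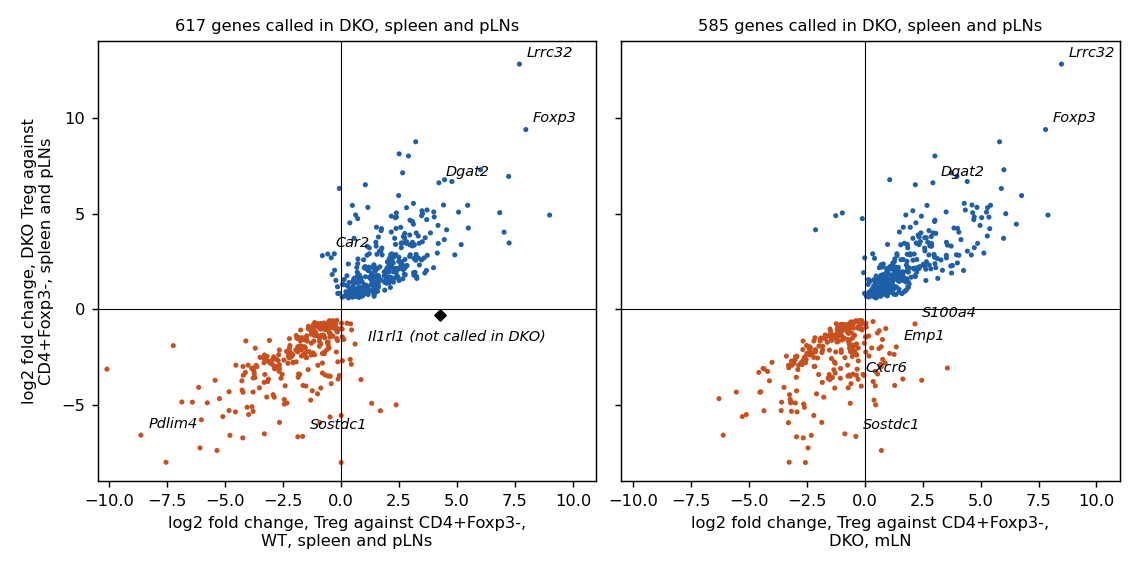
Log2 fold change of Treg against CD4+Foxp3- cells for genes called in DKO spleen and pLNs (vertical axis), against the same contrast in WT spleen and pLNs (left, 617 genes) and in DKO mLN (right, 585 genes tested in both). Blue points were called higher and orange points lower in DKO Treg cells of spleen and pLNs, and the black diamond is Il1rl1, which was not called in DKO. Most points lie in the quadrants of equal sign, and S100a4 and Emp1 are the 2 genes called in opposite directions in mLN.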

How the data were processed

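The authors aligned 50 bp single-end reads of stranded mRNA libraries to mm9 with TopHat2 2.1.1 and counted reads per RefSeq gene with featureCounts (Subread 1.4.3-p1), as the submitters' processing notes and the study's methods give it, and the deposited tables hold raw counts per gene and TPM values that the authors made from them by gene length. A 50 bp read cannot always be assigned to 1 of several near-identical gene copies. Counts of spleen and pLNs (8 libraries of 13525932 to 15253141 reads) and of mLN (12 libraries of 9998478 to 15449158 reads) were fitted separately in R 4.3.3 with edgeR 4.0.16 (TMM, quasi-likelihood F test, all groups of a tissue in 1 fit, genes with at least 1 count). P-values were adjusted over all genes tested (Benjamini-Hochberg), a call required 0.05 or less and a fold change of 1.5 or more, and for interactions the adjusted p alone was used. An SE is the log2 fold change divided by the square root of F. Deposited TPM were used only for the level of Penk and for relative gene lengths. Coordinates are those of build NCBIM37 (mm9) with GENCODE M1, not the annotation used for counting.

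Named genes were the 10 largest differences in each direction at 10 CPM or more without overlap of the groups, called interaction genes, and up to 8 called members per list. Further list members, among them those not called, were named after their values were seen, apart from 15 listed for their role. The members of the comparison and all lists were chosen with earlier results of these data known. Alternatives were DESeq2 1.42.0 size factors and test, filterByExpr, a robust prior, a replicate block, only the groups compared, no fold change minimum and leaving out each library. A length correction (loess, span 0.5) and leaving out both DKO libraries numbered 1 were added after seeing the data. The script was tested on simulated counts. In mLN deviations of same-numbered libraries from their group means correlated at 0.110, 0.372 and 0.390 in DKO and 0.171, 0.174 and 0.183 in WT. In DKO, Treg replicate 3 with CD4+Foxp3- replicate 1 had 0.160, above the 0.110 of the pair numbered 1. The numbers therefore do not pair every DKO sample by this measure. The fit with the replicate number as a block called 1953 genes in place of 1885.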

Additional observations from a re-analysis of the deposited data

Results flagged for a closer look

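A single gene differed in its Treg to CD4+Foxp3- contrast between the genotypes by the test of the interaction, Il1rl1, with an interaction of -4.59 on the log2 scale. The 2 genes below are listed because both libraries of 1 cell type lay above both of the other in DKO and below both in WT. For neither did the interaction pass the threshold, so neither is shown to differ between the genotypes. Among all 16357 genes tested 543 (3.32%) had such an order of the libraries, among the 617 called in DKO 12 (1.94%) and among the 89 named by rule these 2 (2.25%), which is no more than over all genes.

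Ikzf3, the Ikaros-family factor Aiolos, was higher in DKO Treg cells by 1.17 on the log2 scale (172 and 92.6 against 41.2 and 76.2 CPM), and in WT the difference was -0.16 (105 and 108 CPM in Treg against 126 and 112 CPM in CD4+Foxp3- T cells). The interaction had an unadjusted p of 0.00728 and an adjusted p of 0.858, and DKO Treg replicate 1 was the highest of the 8. The call in DKO was kept with the length correction and lost in 7 of 12 alternatives. Over the alternatives the DKO difference ran from 0.27 to 1.68.

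Car2, a carbonic anhydrase, was higher in DKO Treg cells by 2.88 on the log2 scale (199 and 166 against 12.7 and 37.0 CPM), and in WT the difference was -0.58 (5.23 and 5.99 against 8.89 and 7.88 CPM), with an unadjusted interaction p of 2.48e-05 and an adjusted p of 0.0719. The call in DKO was lost in 1 of 12 alternatives, a robust prior, and the DKO difference ran from 2.15 to 3.84 over them. The red cell marker Alas2 reached at most 0.251 CPM in the 4 DKO libraries.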

How the results depend on the processing

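With 2 libraries a group, which genes pass the threshold depended on single libraries, and none of the 617 genes was called in the opposite direction in any alternative. The 617 calls of DKO Treg against CD4+Foxp3- cells became 342 with filterByExpr (which tests 11671 genes), 190 in a fit of only these 4 libraries, 185 to 1586 on leaving out 1 library and 2091 without both DKO libraries numbered 1, and lay between 421 and 720 under the remaining settings other than the block given below. The 654 WT calls became 379 with filterByExpr, 2060 in a fit of only the WT groups and 144 to 198 without 1 library. The 1 interaction gene became 2 with DESeq2 size factors, 11 with DESeq2, 0 with filterByExpr (577 at an unadjusted p below 0.05), 3 with a robust prior, 7 with the length correction, 412 without both DKO libraries numbered 1 and 0 to 674 without 1 library. The 1885 mLN calls became 906 in a fit of only the DKO groups, 2956 with no fold change minimum and 1520 to 2934 without 1 library. The cause of these changes was not tested.

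With a replicate block the counts in spleen and pLNs were 348 in DKO, 360 in WT and 0 for the interaction (874 at an unadjusted p below 0.05). The labels tie no number to a mouse there. Deviations of same-numbered libraries from their group means had r = 0.336 in DKO and 0.213 in WT. With 2 libraries a group both same-numbered pairs must give the same r and crossed pairs its negative. Each genotype thus yields 1 value. Without DKO CD4+Foxp3- replicate 1, Bcl6 and Pdcd1, not called and at -0.44 and -0.19 with all libraries, were called higher in Treg cells (log2 0.91, adjusted p = 0.0440, and log2 0.90, adjusted p = 0.0369), and without replicate 2 they were at -1.13 and -0.81. Of 91 called genes followed through the alternatives, 34 were called in all 12, 57 were not called in at least 1 and 0 changed direction. Tcf7, named above as called, was not among the 91. Of the list counts under the alternatives 226 were within 1.5 times the reported value and 138 were not. Genes at 3 counts or fewer, 0.172 to 0.222 CPM here, could not be told from 0.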

Other observations

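Gene length ran with the contrast in DKO. With 10950 genes split by length into 5 bins of 2190, from the shortest to the longest, the median log2 difference of DKO Treg against CD4+Foxp3- cells was -0.08, -0.04, -0.02, 0.02 and 0.15, with 55, 65, 63, 67 and 81 genes called higher and 49, 35, 62, 53 and 52 called lower. With the length correction 720 genes were called, 592 of them among the 617, 383 higher and 337 lower.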
